A study of Mus musculus with 8 samples.

Results

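Genes linked to the restraint of inflammatory signalling in macrophages, 10 in number and all chosen by name, were followed across the libraries. Zfp36, Zfp36l1, Zfp36l2 and Btg2 act in mRNA decay, Nfkbia, Nfkbiz, Tnfaip3 and Nfkb1 in the NF-kB pathway, and Ier3 and Dusp1 are early response genes that act on kinase and survival signalling. All 10 of 10 were found among the 24516 genes of the count table, and 9 had enough counts to be among the 7667 genes tested. RNA came from cardiac macrophages of C57BL/6 mice at postnatal day 28, sorted by flow cytometry. The 8 libraries were 4 of EcTM, the macrophages that the labels call endocardially derived, and 4 of non-EcTM, sorted from the same kind of mice. Every mouse in both groups had the genotype Nfatc1Cre/+ with 1 copy of a Rosa26 Tomato reporter, so the non-EcTM carry both alleles too. Cre under Nfatc1, a gene of the endocardium, switches the reporter on for good, and the groups therefore separate cells by the history of that allele and not by its present activity. The labels do not say which surface markers were used in the sort. A library's name is its group's letter and a number, as in E591 for EcTM and N591 for non-EcTM, and the same 4 numbers occur in each group. Whether a number is an animal, a litter or a day is not stated, and p-values measure the spread between these libraries.

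NF-kB is a family of transcription factors held in the cytoplasm by IkB proteins until receptor signals have the IkB destroyed. Among the genes that NF-kB then switches on are Nfkbia, which encodes IkB alpha and recaptures the factor, and Tnfaip3, which encodes the ubiquitin-editing enzyme A20 and shuts the upstream signal. The second brake acts on messengers: proteins of the ZFP36 family bind AU-rich elements in the 3′ untranslated region of cytokine mRNAs and bring in the CCR4-NOT deadenylase, and BTG2 binds the same deadenylase. Dusp1 encodes a phosphatase of the p38 and JNK kinases, and the p38 pathway in turn keeps ZFP36 protein inactive. In macrophages these brakes limit the output of tumour necrosis factor and related cytokines.

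The AU-rich element is the sequence the ZFP36 proteins read, and several of the 10 genes carry it in their own mRNA. The nonamer TTATTTATT was searched on the sense strand of 3′ untranslated regions in GENCODE M21 (GRCm38), using the longest transcript matched to a curated RefSeq accession. It was found in 6 of the 10 genes, against 1292 of 20435 coding genes (6.32%). In coding genes whose untranslated region was within 10% of the length of each of the 10, the share lay between 2.87% and 9.45%. The sites are shown as DNA with 5 flanking bases and the nonamer in capitals, so that their flanks can be compared.
Zfp36 (chr7:28376956-28376974, minus strand): cgactTTATTTATTgtatt
Zfp36l1 (chr12:80108172-80108190, minus strand): ttggaTTATTTATTttaga
Zfp36l2 (chr17:84184919-84184937, minus strand): ttaacTTATTTATTatctt
Nfkbia (chr12:55489613-55489631, minus strand): acgttTTATTTATTgtgct
Tnfaip3 (chr10:19001769-19001787, minus strand): ctggtTTATTTATTatgaa
Dusp1, the first of its 2 sites (chr17:26506164-26506182, minus strand): ggtccTTATTTATTtaaca
Dusp1, the other site (chr17:26505875-26505893, minus strand): tacctTTATTTATTtttgt
The shorter form TATTTAT, which lies inside the nonamer, occurred in 8 of 10 against 4891 of 20435 coding genes (23.9%). Ier3 held 4 of these heptamers and Btg2 held 1, both without a nonamer, and these letters were not found in the searched transcripts of Nfkb1 and Nfkbiz.

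NF-kB dimers bind the kappaB site, and its matches are shown for the genes that feed back on NF-kB. Promoters of 7 of the 10 genes were in the RefSeq table (GRCm38.p6), 8 in all since Tnfaip3 has a pair of start sites. The kappaB consensus was searched on both strands in the 250 bases before each start site. It matched in 3 of these 8 promoters and in 1281 of 32851 promoters of the table (3.9%). The matched windows are shown on the strand of the gene with the match in capitals.
Nfkbia, 29 bases before the start site (chr12:55492648-55492696, minus strand): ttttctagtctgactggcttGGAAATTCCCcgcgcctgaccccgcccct
Tnfaip3, 125 bases before the start site (chr10:19015506-19015555, minus strand): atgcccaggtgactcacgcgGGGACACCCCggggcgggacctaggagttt
Tnfaip3, 12 bases before the start site (chr10:19015411-19015442, minus strand): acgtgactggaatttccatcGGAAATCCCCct
Ier3, 92 bases before the start site (chr17:35821601-35821650, plus strand): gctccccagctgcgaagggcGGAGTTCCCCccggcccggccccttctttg
The promoters of Zfp36l2, Nfkbiz and Nfkb1 were not analysed here. The CArG box, the site of serum response factor, matched in the Zfp36 promoter alone of the 8 and in 482 of 32851 (1.47%), and the CRE core TGACG, searched on both strands, in 3 of 8 and in 17.8% of the table. A match describes the letters only, and binding was not measured.

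Total counts per library ran from 2152425 to 2937464, and 0 counts in a library allow a level of up to 3 counts. That is 1.02 to 1.39 CPM (counts scaled to a library size), here by the raw total. All other CPM values use the counts of the tested genes, scaled by TMM, as the library size. Of 18 macrophage markers 16 were tested, with Csf1r at 5375 to 6281 CPM and Adgre1 at 796 to 907 CPM in the 8 libraries, while Itgam and Folr2, with 2 and 3 curated transcripts, were at 0 in all of them. The markers with the smallest p between groups in edgeR were Timd4, Cd14 and Ccr2. Their log2 fold changes were -0.42 ± 0.19, 0.27 ± 0.14 and -0.54 ± 0.31, each with an adjusted p of 0.998. Nfatc1, with 6 curated transcripts, was at 0 in 8 of 8 libraries, which in this table cannot be read as no expression. The sum of 10 endothelial markers, of which Pecam1, Tek, Emcn and Npr3 were at 0, was 42.5 to 272 CPM in EcTM and 81 to 736 CPM in non-EcTM. The 736 CPM were those of N591, and the other non-EcTM libraries had 81 to 136 CPM. E606, at 190 CPM, was above N606, at 105 CPM, while the other numbers had the lower sum in EcTM. The sum of 7 mural markers, with Myh11 and Pdgfrb at 0, was 71.9 to 96.2 CPM in EcTM and 76.7 to 263 CPM in non-EcTM, and Mylk had a log2 fold change of -0.92 ± 0.27 (p 0.0037, adjusted p 0.998 in edgeR), lower in EcTM in 4 of 4 pairs. Genes with several curated transcripts tended to have fewer counts in this table: ribosomal protein genes with 1 curated transcript had a median summed count of 377, and those with 2 or more had 19. Tnfaip3 has 2 curated transcripts, Nfkbiz has 3 and the other 8 genes have 1. In bulk RNA, fewer cells of a type and less RNA per cell cannot be told apart.

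The question of the study was how EcTM differ from non-EcTM, and for these genes no difference passed the test. None of the 9 tested genes passed the test between groups, in either direction, and in each of the 9 the libraries of the groups overlapped. Fitted fold changes ran from 0.951 for Ier3 to 1.1 for Btg2, and the 95% intervals of all 9 lay between 0.808-fold and 1.35-fold. Unless stated otherwise, SE, intervals and adjusted p-values between groups come from the fit of the group alone, which ignores the pairing by number. The test of edgeR called 0 of 7667 genes (0%) at an adjusted p under 0.05, with 257 at an unadjusted p under 0.05 (3.35%), of which 0 were among the 9. DESeq2 also called 0 genes, with 457 at an unadjusted p under 0.05 (3.2%). The median log2 fold change was 0.07, between 0.03 without E591 and 0.11 without N591 or N592, over the 9 genes and 0.01 over all tested genes. Their median absolute value, 0.07, was also that of the 702 tested genes at the higher levels, a mean log2 CPM of 8 or more.

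**Figure D1:**
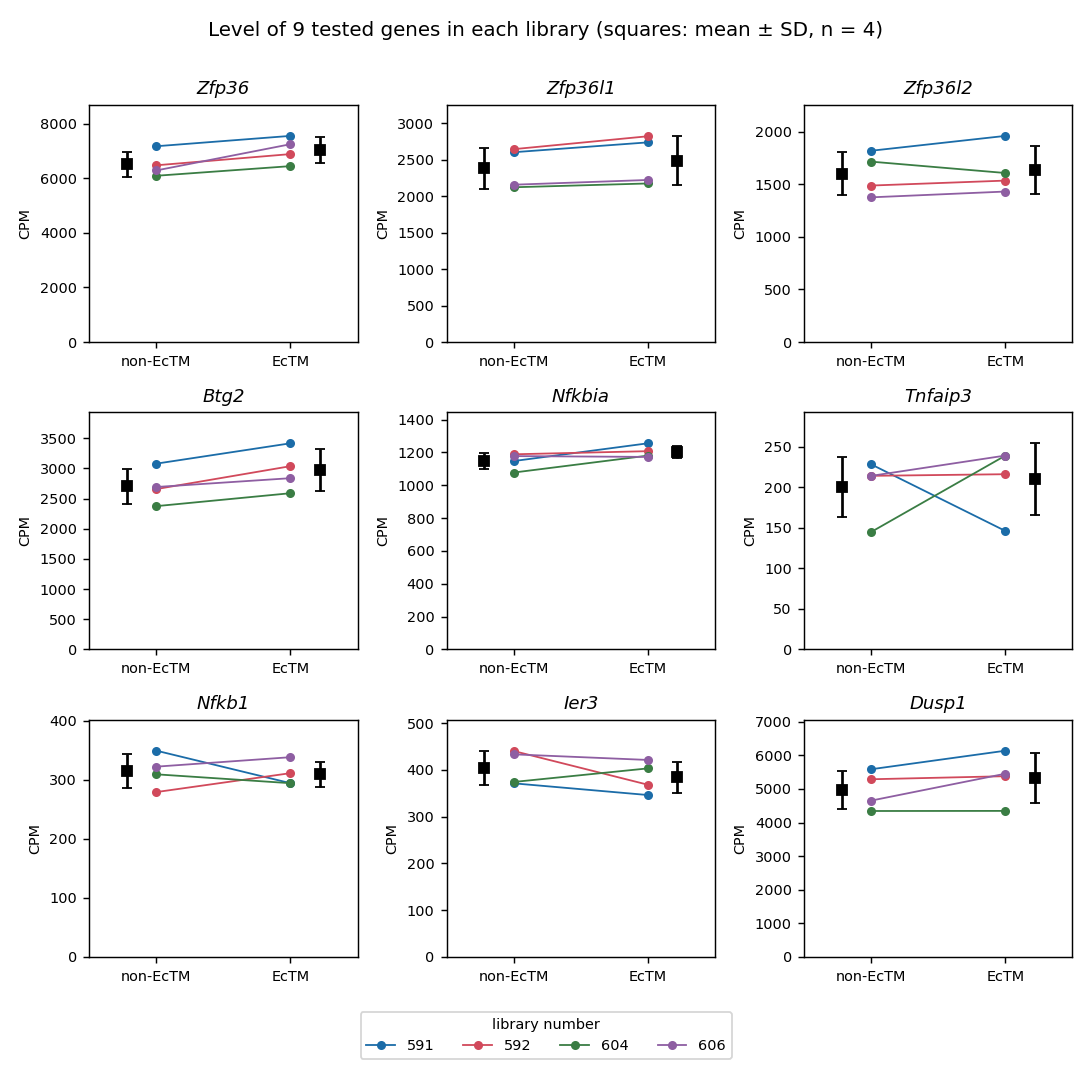
Level of each of the 9 tested genes in CPM (vertical axes, from 0) in non-EcTM and EcTM libraries, a line for each number and squares that mark mean and SD (n = 4). The 4 lines of Zfp36, Zfp36l1 and Btg2 all climb slightly, while those of Tnfaip3 cross between 145 and 239 CPM.

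Zfp36 encodes tristetraprolin, the founding AU-rich element binding protein, and was the most abundant of the 10 by read count. It lies on chromosome 7 from 28376784 to 28379228 (GRCm38). Its level was 7554, 6887, 6446 and 7249 CPM in E591, E592, E604 and E606, and 7175, 6477, 6093 and 6289 CPM in N591, N592, N604 and N606. The EcTM library was the higher in 4 of 4 number pairs, although the groups overlapped. EcTM had a mean of 7034 ± 478 CPM (SD, n = 4) and non-EcTM one of 6509 ± 471 CPM, a log2 fold change of 0.11 ± 0.07 (SE) with an adjusted p of 0.998. That is 1.08-fold, with a 95% interval from 0.97 to 1.2 in the fit of the group alone. With the number as a block in the edgeR model the interval was 1.02 to 1.14, with an adjusted p of 0.751. The log2 ratios of the pairs were 0.07, 0.09, 0.08 and 0.20 in the order of the numbers.

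Zfp36l1 and Zfp36l2 encode the paralogs of tristetraprolin, which bind the same element. Zfp36l1 (chromosome 12, 80107760 to 80113013) stood at 2741, 2825, 2177 and 2225 CPM in the EcTM libraries in the same order and at 2606, 2648, 2125 and 2160 CPM in the non-EcTM libraries. Both groups split into a high pair of libraries, E591 with E592 and N591 with N592, and a low pair. Between groups it differed by 0.06 ± 0.11 on the log2 scale (adjusted p 0.998), with 0.00 without E592 and 0.12 without E604 or N592. Zfp36l2 (chromosome 17, 84183924 to 84187947) had 1960, 1535, 1607 and 1431 CPM in EcTM and 1819, 1488, 1715 and 1376 CPM in non-EcTM. E591 and N591 were its highest libraries and E606 and N606 its lowest. EcTM exceeded non-EcTM by 0.03 ± 0.11 on the log2 scale (adjusted p 0.998), which became -0.07 without E591, -0.04 without N606 and 0.10 without N591.

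Btg2, an antiproliferative gene whose protein binds the CCR4-NOT deadenylase, lies on chromosome 1 from 134074865 to 134079155. Its level was 3416, 3037, 2589 and 2838 CPM in EcTM and 3079, 2658, 2375 and 2692 CPM in non-EcTM. The log2 fold change was 0.14 ± 0.10 (adjusted p 0.998), with 0.07 without E591 and 0.21 without N591, and EcTM was the higher in 4 of 4 pairs. The paired log2 ratios were 0.15, 0.19, 0.12 and 0.08, a narrower spread than that between libraries of one group.

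Among the NF-kB genes, Nfkbia varied least. It lies on chromosome 12 from 55489409 to 55492647 and stood at 1256, 1208, 1181 and 1173 CPM in EcTM and 1148, 1189, 1078 and 1178 CPM in non-EcTM. Over the 8 libraries the SD of its log2 CPM was 0.06, against a median of 0.15 for the 702 genes of high level. The fold change was 1.05, with a 95% interval from 0.929 to 1.18 and an adjusted p of 0.998. EcTM was the higher in 3 of 4 pairs, and the log2 fold change of 0.07 was 0.04 without N604.

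Tnfaip3 varied most. This gene on chromosome 10 (19000910 to 19015410) had 146, 216, 239 and 239 CPM in EcTM and 228, 214, 145 and 214 CPM in non-EcTM. E591 and N604 were low, at about the same level, and the other 6 libraries lay between 214 and 239 CPM. The pair log2 ratios were therefore of both signs, -0.63 for E591 with N591, 0.01 for E592 with N592, 0.72 for E604 with N604 and 0.16 for E606 with N606. The log2 fold change of 0.07 ± 0.17 had an adjusted p of 0.998 and turned to -0.06 without N604 and to -0.00 without E606, against 0.21 without E591.

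Nfkb1 encodes p105, the precursor of the p50 subunit, whose uncleaved form also acts as an IkB protein. It lies on chromosome 3 from 135584655 to 135691969, and ran from 294 to 338 CPM in EcTM and from 279 to 349 CPM in non-EcTM. EcTM was the higher in 2 of 4 pairs, and the log2 fold change was -0.02 ± 0.11 (adjusted p 0.998), or 0.00 without E591 and 0.03 without N591. Nfkbiz, which encodes the atypical nuclear protein IkB zeta (chromosome 16, 55811375 to 55838954), had 0 counts in 6 libraries, 2 in N592 and 3 in N606. It has 3 curated transcripts, and no comparison was made for it.

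Dusp1 was the most abundant of the 10 by read count after Zfp36. It lies on chromosome 17 from 26505591 to 26508472 and had 6138, 5379, 4346 and 5454 CPM in EcTM and 5587, 5288, 4343 and 4654 CPM in non-EcTM. E591 and N591 were the highest and E604 and N604 the lowest of their groups. The log2 fold change was 0.10 ± 0.10 (adjusted p 0.998), with 0.03 without E591, 0.04 without N604 and 0.19 without E604. Ier3, an early response gene whose protein modulates survival signalling, lies on chromosome 17 from 35821713 to 35822911. It ran from 346 to 421 CPM in EcTM and 371 to 440 CPM in non-EcTM, and with a log2 fold change of -0.07 ± 0.11 (adjusted p 0.998) it was the higher in EcTM in 1 of 4 pairs. That value was -0.02 without E591 and -0.12 without E606.

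Libraries of the same number deviated from their group means together, and with the number as a block in the model the intervals narrowed while the fold changes stayed the same to 2 decimals on the log2 scale. The median SE of the 9 genes was 0.06 in place of 0.11. Zfp36 then had an unadjusted p of 0.00861, Btg2 of 0.0119 and Dusp1 of 0.0404, and their adjusted p-values were 0.751, 0.800 and 0.907. Thus 3 of 9 had an unadjusted p under 0.05, all 3 with the higher level in EcTM, where 414 of 7667 genes (5.4%) had one and 2.77% had one with the higher level in EcTM. The share among the 702 genes of high level, to which 8 of the 9 belong, was not computed for this fit. In the same fit 5 of 21 tested immediate-early and dissociation-response genes had an unadjusted p under 0.05 with the higher level in EcTM and 0 with the lower, among them Egr1 at 6.11e-05 (adjusted p 0.144), higher in 4 of 4 pairs. Of 4 tested endothelial markers 2 had one with the lower level in EcTM, and the part of either in the values of Zfp36, Btg2 and Dusp1 was not tested. None of the 9 passed after adjustment, and 1 gene of 7667 (0.013%) did. The paired DESeq2 fit gave Btg2 an adjusted p of 0.159, the smallest of any of the 9 in any fit, and Zfp36 0.4, where 17 of 4325 genes with an adjusted p were called (0.393%). EcTM was higher in 4 of 4 pairs in 4 of the 9 genes, against 557 of 7667 tested genes (7.26%) and 124 of the 702 of high level (17.7%). Those 4 were Zfp36, Zfp36l1, Btg2 and Dusp1, and for Dusp1 the ratio of E604 to N604 was 0.00 on the log2 scale.

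**Figure D2:**
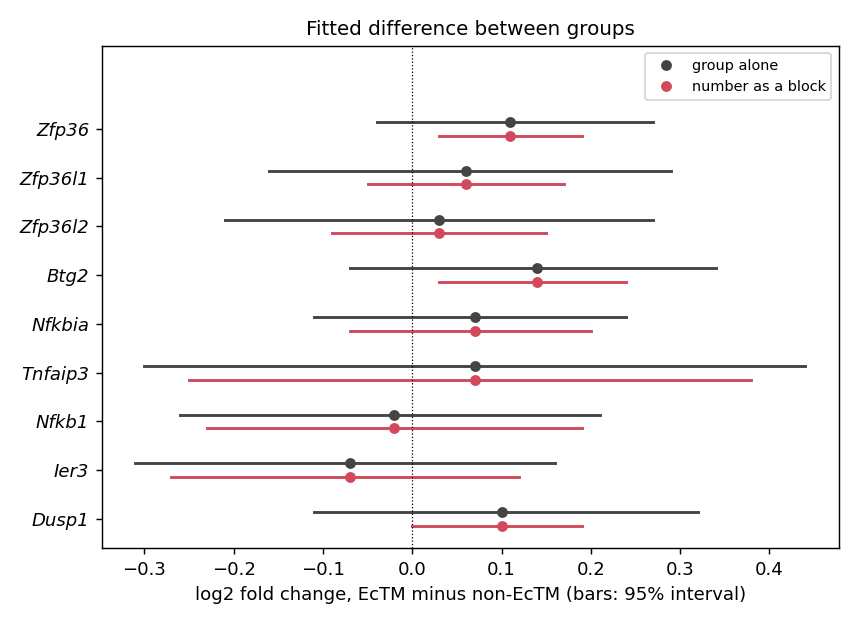
Log2 fold change of each of the 9 tested genes (horizontal axis, EcTM minus non-EcTM) with 95% intervals, from the fit of the groups alone (grey) and with the library number as a block (red). All grey intervals cross 0, and the red ones of Zfp36, Btg2 and Dusp1 begin at 0.03, 0.03 and 0.00.

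More genes were called between library numbers than between groups, among all tested genes and among the 9. With the group in the model, edgeR called 233 of 7667 genes (3.04%) as different between the 4 numbers, and 81 of the 702 genes of high level (11.5%). Each number has a single EcTM and a single non-EcTM library, and these serve as its replicates in this test. The error of the test is thus how far the ratio of the groups varied between numbers. What a further library of the same number and group would show was not measured. Among the 9 genes 4 were called: Dusp1 at an adjusted p of 7.30e-04, Zfp36l1 at 0.00277, Btg2 at 0.00911 and Zfp36l2 at 0.0129. All 4 called genes were of high level, as were 8 of the 9, so the second share is the nearer background. Zfp36 missed the threshold at 0.0911 and passed in DESeq2's likelihood ratio test, at 0.044, where 439 of 8767 genes (5.01%) were called.

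The highest of the number means exceeded the lowest by 1.35-fold for Dusp1 and 1.31-fold for Btg2, both highest in E591 and N591 and lowest in E604 and N604. It did so by 1.27-fold for Zfp36l1, from E592 and N592 down to E604 and N604, and by 1.35-fold for Zfp36l2, from E591 and N591 down to E606 and N606. For Dusp1 that range over 4 means is 0.43 on the log2 scale. The mean absolute difference between libraries of the same number was 0.10. These are unlike measures, since a range over 4 values tends to be the larger. Zfp36l1 and Zfp36l2 kept one order of the 4 numbers in both groups, but it was not the same order for the paralogs. The count ratio of Zfp36l1 to Zfp36l2 within a library, which no scaling can move, was 1.40, 1.84, 1.35 and 1.55 in E591, E592, E604 and E606. It was 1.43, 1.78, 1.24 and 1.57 in N591, N592, N604 and N606, so that E592 and N592 were highest and E604 and N604 lowest.

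For the NF-kB genes and Ier3 no difference between numbers passed. Nfkbia, Tnfaip3, Nfkb1 and Ier3 had adjusted p-values between numbers of 0.951, 0.891, 0.923 and 0.790, and none had the same highest number in both groups, though E591 and N591 were the lowest libraries of Ier3 in each. Whether these 4 genes vary less between numbers than Dusp1 and the decay genes was not tested.

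**Figure D3:**
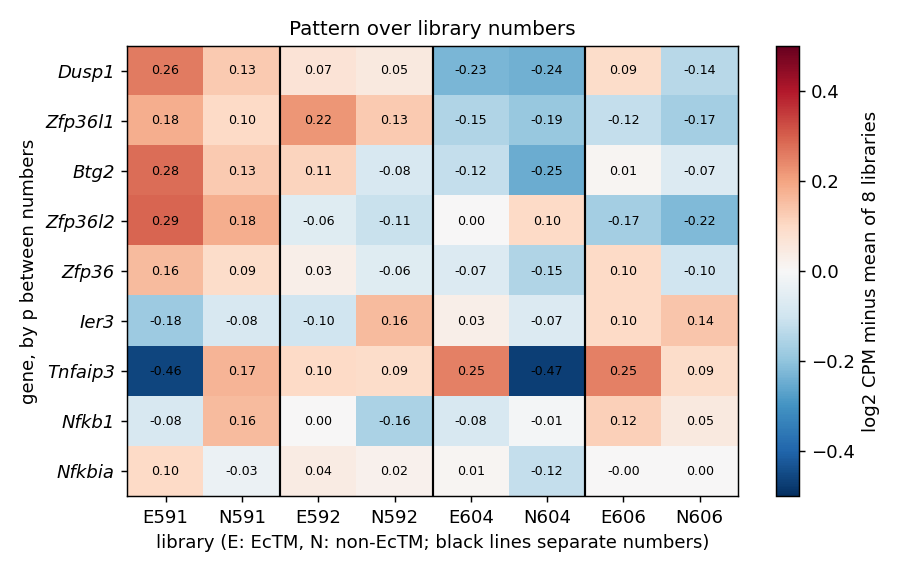
Log2 CPM of 9 genes in each library minus the mean of that gene over 8 libraries (colour and printed value), with libraries ordered by number and genes by their p between numbers. Dusp1, Btg2 and Zfp36l2 are red in E591 and N591 and Dusp1 is blue in E604 and N604, while Tnfaip3 has -0.46 in E591 and 0.17 in N591.

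Some of the calls between numbers rested on particular numbers, although a fit without a number has fewer samples, which can itself lose a call. Without E591 and N591 Zfp36l2 had an adjusted p of 0.416 and Btg2 0.412, and 2 of the 9 were called. Without E604 and N604 Btg2 had 0.224 and Dusp1 0.202, again with 2 called, and without E606 and N606 Zfp36l2 had 0.117 while Zfp36 passed at 0.0383. Zfp36l1 was called in 8 of 8 alternatives, with adjusted p-values from 1.52e-09 to 0.0265. Dusp1 was called in 7 of 8, and Btg2 and Zfp36l2 in 6 of 8 each. The numbers also differed in other ways. The heat shock gene Hspa1a, which tissue dissociation can raise, stood at 1054 and 1114 CPM in E591 and N591 and at 429 to 629 CPM elsewhere. The summed level of 24 immediate-early and dissociation-response genes was 61130 and 57386 CPM in E591 and N591 and 45617 to 53150 CPM in the others. The 8 fibroblast markers, with Pdgfra and Postn at 0, summed to 126 and 188 CPM in E591 and N591 and 22.3 to 42.5 CPM elsewhere, and the 10 endothelial markers to 272 and 736 CPM against 42.5 to 190 CPM. E592 and N592 had Ddx3y of the Y chromosome at 116 and 120 CPM, and the others had 0.439 to 2.76 CPM, so sex went with that number. Of the 16 tested macrophage markers 5 were called between numbers, Cd14 among them, where 3.04% of all tested genes were. Among genes of high level these were 4 of 11, beside 11.5% of the 702. The part of these in the differences of Dusp1, Btg2, Zfp36l1 and Zfp36l2 was not tested.

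Levels of different genes can be compared only per length. Per kilobase of the GENCODE transcript, and among the 8 genes with 1 curated transcript, the order of levels was Dusp1, Zfp36, Btg2, Zfp36l1, Nfkbia, Zfp36l2, Ier3 and Nfkb1. In EcTM Dusp1 had 2678 ± 372 CPM per kb (SD, n = 4), against 2496 ± 286 in non-EcTM, and Zfp36 had 2521 ± 171 and 2333 ± 169. Dusp1 was above Zfp36 in 6 of 8 libraries, with ratios of 0.945 to 1.14, so these neighbours had no fixed order. The GENCODE transcript of Zfp36, at 2790 bases, is longer than the RefSeq span of the gene, and a shorter length would raise its level per kb. Zfp36l1, at 833 ± 113 in EcTM and 798 ± 93.7 in non-EcTM, was above Nfkbia in 6 of 8 libraries, with ratios of 0.968 to 1.23. Each of the other neighbours kept its order in 8 of 8 libraries, the closest being Zfp36l2 over Ier3 at 1.02 to 1.81 and Btg2 over Zfp36l1 at 1.09 to 1.39. Nfkb1 was far lower, at 75.1 ± 4.99 in EcTM and 76.4 ± 7.07 in non-EcTM. Among 5036 tested coding genes with 1 curated transcript Dusp1 ranked 7 and Zfp36 ranked 8 by mean level per kb, and Nfkb1 ranked 554. The 10 genes together took 19281 to 23851 CPM in EcTM and 18558 to 22361 CPM in non-EcTM.

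Other genes of the pathways were also without a call between groups. None of the 8 tested NF-kB subunits, IkB proteins and kinases passed, nor any of 15 receptor-proximal signalling genes, 9 ubiquitin-editing inhibitors, 23 genes of deadenylation, decapping and exonucleases, 8 other RNA-binding proteins of mRNA stability, 3 other BTG and TOB genes, 9 other dual-specificity phosphatases, 13 MAP kinases and their kinases, 13 cytokine and other target genes and 21 immediate-early genes. Their median log2 fold changes lay between 0.00 for the decay machinery and 0.20 for the phosphatases, beside 0.01 for all tested genes. The NF-kB subunit gene Rel had a log2 fold change of 0.27 ± 0.15 with an adjusted p of 0.998. Of the decay machinery Dcp1b, a decapping cofactor, had 0.99 ± 0.37 and Lsm3, of the ring that binds decapping substrates, had -0.92 ± 0.42, both at low levels of 6.7 to 33.3 CPM and both with an adjusted p of 0.998. Part of this machinery cannot be assessed here, since 10 of its 40 genes, Cnot1 and Xrn1 among them, were at 0 in all libraries.

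Among these 10 lists the relatives of Dusp1 had the highest median, and they are described further for that reason. The counts and sums given for them come from the same values and are no separate support. Of 9 tested phosphatase genes 3 had an unadjusted p under 0.05, where 3.35% of all tested genes had one, and all 3 were above 0, where 1.73% of all were. Dusp6, a phosphatase of the ERK kinases, stood at 302, 343, 350 and 347 CPM in EcTM and 257, 246, 291 and 300 CPM in non-EcTM. Its groups did not overlap, which held for 2.7% of tested genes, and its log2 fold change was 0.29 ± 0.11 (adjusted p 0.998). Dusp2 and Dusp8 had 0.53 ± 0.19 and 0.59 ± 0.25 with the same adjusted p. The summed level of the 10 listed phosphatases was 1041 to 1220 CPM in EcTM and 980 to 987 CPM in non-EcTM. None of these passed after adjustment, with or without the block. Dusp1 itself is not in these counts.

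**Figure D4:**
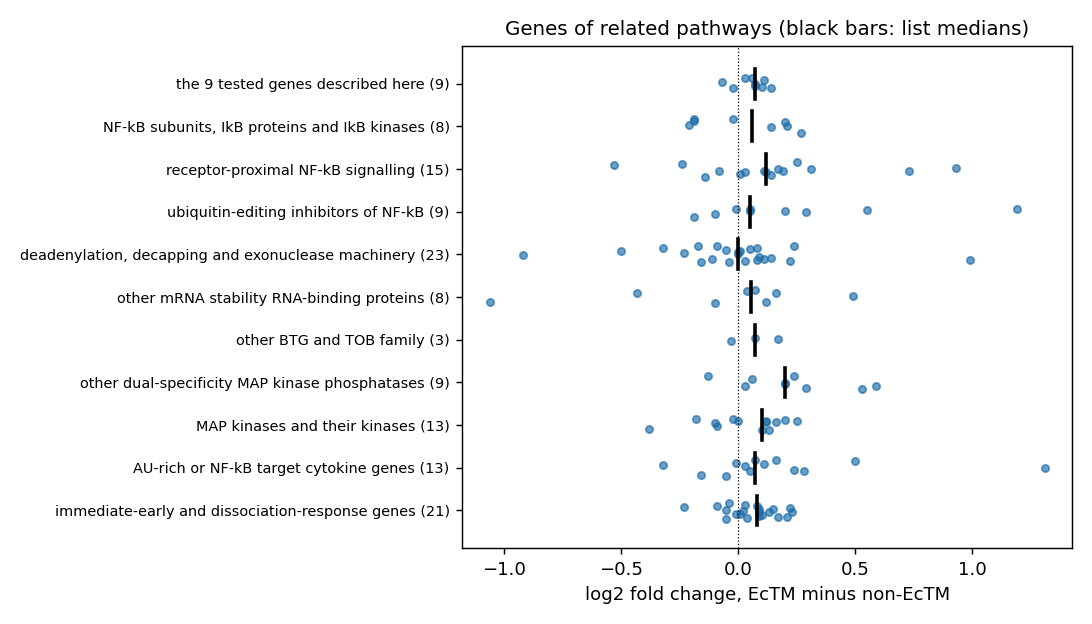
Log2 fold change of each tested gene (points, EcTM minus non-EcTM) in the 9 genes described and 10 lists of related genes, with the number of tested genes in brackets and black bars at the medians. The medians lie between 0.00 and 0.20, and none of the points passed the test after adjustment.

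Some targets of the brakes also differed between numbers. Of the 13 tested target genes 4 were called between numbers, Il1b at an adjusted p of 3.57e-05, Ccl2 at 0.00226, Cxcl2 at 0.00461 and Cxcl1 at 0.0287, and of the 21 immediate-early genes 7, among them Fos at 9.52e-05 and Egr1 at 7.79e-04, where 3.04% of all tested genes were called. Among genes of high level these were 3 of 5 targets and 7 of 18 immediate-early genes, beside 11.5% of the 702. These genes are named after their values were seen. Il1b had 979, 1110, 525 and 923 CPM in E591, E592, E604 and E606 and 766, 802, 494 and 856 CPM in N591, N592, N604 and N606. It was lowest in E604 and N604, as Dusp1 was, but highest in E592 and N606. Cxcl2 was also lowest in E604 and N604, and highest in E606 and N606. Cxcl1 was lowest in E604 and N591. Ccl2 was lowest in E591 and N591, at 266 and 324 CPM, where Dusp1 was highest. These 4 targets thus shared no single order of the numbers. Tnf, the classical target of tristetraprolin, has 2 curated transcripts and had 0 to 7.83 CPM, below the level tested. Over the 556 tested genes with the nonamer in the 3′ untranslated region, the median log2 fold change between groups was 0.02, beside 0.01 over the 7411 tested genes with a matched coding transcript. Between numbers 21 of the 556 were called (3.78%), and 223 of the 7411 (3.01%).

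The genes whose pattern over the 8 libraries lay nearest to the mean of the 9 were Tgfbi, Brms1, Ppp1r15a, Lasp1 and Jun. Likeness was the root mean square difference between centred log2 CPM, over 3798 tested genes whose mean log2 CPM reached 5. It was 0.0406 for Tgfbi and 0.0544 for Jun, where the median gene had 0.249. The mean of the 9 genes moved little, from -0.16 in N604 to 0.09 in N591, so this measure finds genes of low variation as well as genes of the same pattern.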

How the data were processed

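RNA of sorted cells was sequenced in 8 libraries made with a SMARTer stranded total RNA kit, per the labels' protocols. The deposited table holds read counts per gene and log2 values that its headers call CPM, and only the counts were used. Per the submitters' processing notes, bcl2fastq 2.17, TopHat, DESeq2, R 3.2 and the mm10 build were used by the authors. How reads were assigned to genes, with which annotation and strand, is not given in the sources used here.

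Genes were kept with edgeR's filterByExpr (7667 of 24516, with 99.3% of counts), scaled by TMM, and tested by quasi-likelihood in edgeR 4.0.16 (R 4.3.3), with the group alone. P-values were adjusted by Benjamini-Hochberg over all tested genes, with a threshold of 0.05. A further test asked whether a gene differed between the 4 title numbers, with the group in the model. CPM use TMM factors, and log2 CPM add a prior count of 2. Alternatives were the number as a replicate block, DESeq2 1.42.0, other scalings and filters, genes with 1 curated transcript, and leaving out libraries. After removal of group means, libraries of the same number had correlations across genes of 0.122 to 0.186, and other pairs had -0.127 to 0.0532, so the numbers were taken as pairs. The fits were also run on simulated counts with a single dispersion (spread between libraries) for all genes, lower than the common one of these data. False calls between numbers were not counted in that run, so it does not measure how often such calls are false.

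Gene positions came from RefSeq (GRCm38.p6, the assembly that mm10 names), transcripts from GENCODE M21, and promoters from RefSeq. Named genes were the 10 described genes, up to 3 of each related list by p, 5 genes of similar pattern and Nfatc1. Outside that rule, Csf1r, Adgre1, Ddx3y, Hspa1a, Il1b, Ccl2, Cxcl2, Fos, Tnf and markers or pathway genes at 0 were named after their values were seen. The genes and lists were chosen with earlier results of these data known. Figures were drawn with matplotlib 3.10.9.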

Additional observations from a re-analysis of the deposited data

Results flagged for a closer look

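Tnfaip3 in N604 stood at 145 CPM, apart from the other 3 non-EcTM libraries at 214 to 228 CPM, with a gap of 0.836 of the range of the group. It was the only such library among 18 combinations of gene and group examined, of which chance alone sets apart about 1 in 20. E591 had a similar level, 146 CPM, but lay within the limit for its own group.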

How the results depend on the processing

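Over 20 alternatives for the comparison of groups, 0 settings called any of the 9 genes. The count over all genes was 0 as reported, 1 with the replicate block, 17 with DESeq2 and the replicate block and 7 with no filter on low counts, and 0 to 2 when libraries or pairs were left out. The block changed no call of the 9 genes. The median log2 fold change of the 9 was 0.07, from 0.03 to 0.11 when single libraries were left out and from 0.05 to 0.09 with the block and a pair left out. Of 179 values of single genes under alternatives, 171 kept their sign, and the reversals were those of Zfp36l2 (-0.07 to 0.10), Nfkb1 (-0.08 to 0.05) and Tnfaip3 (-0.06 to 0.21 without a library, -0.15 to 0.29 with the block and without a pair) when libraries were left out. Between numbers the count over all genes was 233, 350 with no filter, 439 with DESeq2, and 146 to 179 without the libraries of 1 number, which leaves fewer samples, and of the 9 genes 2 to 4 were called without 1 number. The cause of the other changes was not tested. The DESeq2 fit with the group alone gave 0 calls. Depth did not limit the abundant genes, whose summed counts over 8 libraries reached 131964, while Nfkbiz, with 5 counts, was below what these libraries can compare.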
